A study of Mus musculus with 12 samples.

Results

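The genes described here are 10 drug efflux and uptake transporters of the mouse duodenum, chosen by symbol: the exporters Abcb1a, Abcb1b, Abcc1, Abcc2, Abcc3, Abcc4 and Abcg2, and the uptake carriers Slco2a1, Slco2b1 and Slc22a4. They are 10 of the 26121 genes listed in both deposited count tables, and all 10 passed the filter on low counts in each of the 4 comparisons made. RNA was sequenced in 12 libraries of duodenum from C57BL/6N mice, in 4 groups of 3. The HFD PCN group (libraries 5, 11 and 27) ate a high-fat diet and received pregnenolone 16α-carbonitrile (PCN) at 50 mg/kg intraperitoneally, daily for 4 days. The HFD Vehicle group (23, 50 and 55) ate the same diet and was injected over 4 days with the vehicle, 30% DMSO in corn oil. The HFD group (4, 30 and 38) ate the high-fat diet and the Chow group (8, 17 and 19) regular chow, and no injection is given in the labels for either. The diets began when the mice were 6 weeks old and lasted 18 weeks in every group. Nothing in the labels says that the libraries came from separate animals, so p-values may measure only the spread between these samples.

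ATP-binding cassette (ABC) exporters use ATP to pump drugs, conjugates and other substrates out of the cell. In the enterocyte, P-glycoprotein (Abcb1a and Abcb1b), Mrp2 (Abcc2) and Bcrp (Abcg2) sit in the apical membrane and return substrates to the gut lumen, whereas Mrp3 (Abcc3) and Mrp1 (Abcc1) sit basolaterally and pass them towards the blood. Solute carriers of the organic anion (Slco) and organic cation and carnitine (Slc22) families mediate uptake. In rodents PCN activates the pregnane X receptor (PXR, gene Nr1i2). This nuclear receptor binds DNA as a heterodimer with the retinoid X receptor and is known for inducing Cyp3a11 and drug exporters such as Abcb1a and Abcc2.

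The promoters of the P-glycoprotein pair and of Abcc2 are shown because Abcb1a and Abcc2 had the 2 largest log2 fold changes among the 10 genes after PCN, while Abcb1b, the paralog of Abcb1a, lies next to it. Each run is the 250 bases before the RefSeq start (GRCm38.p6, plus strand, 5′ to 3′), and capitals mark a nuclear receptor half-site, AGGTCA or AGTTCA, on either strand.
Abcb1a, chr5:8566841-8567090: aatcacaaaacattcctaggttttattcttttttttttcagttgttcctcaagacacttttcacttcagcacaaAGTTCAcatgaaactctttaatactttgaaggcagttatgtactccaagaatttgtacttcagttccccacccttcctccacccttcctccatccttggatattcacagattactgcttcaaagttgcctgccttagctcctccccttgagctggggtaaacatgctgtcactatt
Abcb1b, chr5:8797897-8798146: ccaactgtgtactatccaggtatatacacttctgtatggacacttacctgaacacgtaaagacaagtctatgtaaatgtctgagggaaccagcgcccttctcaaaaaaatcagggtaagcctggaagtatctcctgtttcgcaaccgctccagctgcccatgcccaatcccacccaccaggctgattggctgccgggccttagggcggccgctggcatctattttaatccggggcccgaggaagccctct
Abcc2, chr19:43782058-43782307: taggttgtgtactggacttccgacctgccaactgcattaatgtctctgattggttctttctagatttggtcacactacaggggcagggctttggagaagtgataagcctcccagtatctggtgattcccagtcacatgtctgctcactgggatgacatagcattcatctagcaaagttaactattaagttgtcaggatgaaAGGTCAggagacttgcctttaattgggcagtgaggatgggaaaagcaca
The Abcb1a window held AGTTCA at bases -176 to -171 before the start, and the Abcc2 window AGGTCA at bases -49 to -44. No half-site stood in the Abcb1b window. Half-sites also stood in 2 of the 3 RefSeq windows of Abcg2 and in 1 of the 3 of Slco2b1. Like Abcb1a and Abcc2, these genes were not called in edgeR against HFD Vehicle with all libraries kept. AGGTCA was in 14% and AGTTCA in 11.8% of the 32851 promoter windows of this length, so a single half-site is common. Pairs of these half-sites were also searched on both strands, as direct repeats with 3, 4 or 5 bases between them and as everted repeats with 6 or 8. No such pair was found in the 13 promoter windows that RefSeq held for 8 of the 10 genes, where at most 0.0335% of all windows held any 1 arrangement. With pairs that rare, finding none in 13 windows says little about these genes. Only exact letters within 250 bases were searched, and sites further away or with other letters were not. The RefSeq start of Abcb1a lies 92986 bases upstream of the start of the gene in the deposited tables, inside the gene Rundc3b on the opposite strand. For Abcc2 the deposited gene begins 116 bases upstream of the RefSeq start.

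Abcb1a and Abcb1b, which are separated by 49571 bases on chromosome 5, encode nearly the same pump and can share reads. Their coding sequences are 3828 bases each and were identical at 88.1% of aligned bases, with a longest identical run of 338 bases. Of all stretches of 50 bases in the Abcb1a coding sequence, 20.3% also occur in Abcb1b. The most divergent 90 bases lie at coding bases 1883 to 1972 of Abcb1a and 1892 to 1981 of Abcb1b, and are shown with the 29 differing bases in capitals.
Abcb1a: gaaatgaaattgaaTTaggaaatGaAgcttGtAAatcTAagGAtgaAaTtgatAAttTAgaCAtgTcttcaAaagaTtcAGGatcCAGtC
Abcb1b: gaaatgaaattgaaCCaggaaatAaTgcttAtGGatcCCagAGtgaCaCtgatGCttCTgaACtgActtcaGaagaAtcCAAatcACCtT
By contrast, the 90 bases from coding base 1204 of Abcb1a and 1213 of Abcb1b, in the first nucleotide-binding domain, are the same in both genes.
Abcb1a and Abcb1b: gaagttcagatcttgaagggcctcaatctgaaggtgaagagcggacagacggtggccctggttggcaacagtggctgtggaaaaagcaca
How the authors' counting treated reads that match both genes is not given in the sources used here, so the split between the 2 genes is uncertain.

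Total counts ranged from 4676718 in HFD Vehicle 55 to 20684369 in HFD PCN 5. The extraction protocol names liver pieces while the tissue label is duodenum. Of 6 hepatocyte markers, the 4 listed in both tables summed to 0.902 to 4.07 CPM (reads per 1000000 counted, scaled with TMM factors over all 12 libraries), against 11005.4 to 34342.1 CPM for 10 enterocyte markers. HFD Vehicle 23 stood apart from the other libraries. It had the lowest enterocyte marker sum, 11005.4 CPM, followed by HFD 4 with 17145.7 CPM. Hsp90aa1, a heat shock gene, stood at 1813.9 and 1479.1 CPM in HFD Vehicle libraries 23 and 50, against 63.4 to 428 CPM in the Chow libraries. It stood at 114 CPM in HFD Vehicle 55, 121 to 224 CPM in HFD PCN and 63.8 to 156 CPM in HFD. HFD Vehicle 23 was also the highest of the 12 libraries for 3 of the 10 transporter genes and the lowest for 3 others. HFD 4 was the lowest for another 3.

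Scaled by exon length, the transporter genes spanned a wide range of levels. Abcc2 was the highest, with a mean of 213 ± 54.9 CPM per kb in HFD PCN, 120 ± 20.2 in HFD Vehicle, 102 ± 27.8 in HFD and 113 ± 11.3 in Chow (SD, n = 3 each, as for all means below). Abcb1a followed with 183 ± 55.3 CPM per kb in HFD PCN, 72.2 ± 12.9 in HFD Vehicle, 43.8 ± 21.4 in HFD and 57.1 ± 9.15 in Chow. Abcc3, Slco2b1 and Abcg2 had group means of 7.93 to 25.7 CPM per kb, and Slc22a4 and Slco2a1 of 3.78 to 6.96. Abcc1 and Abcc4 lay near 1 CPM per kb, with group means of 0.867 to 1.33. Abcb1b was the lowest in every group, at 0.297 to 0.441 CPM per kb, so nearly all of the P-glycoprotein transcript counted was Abcb1a.

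**Figure D1:**
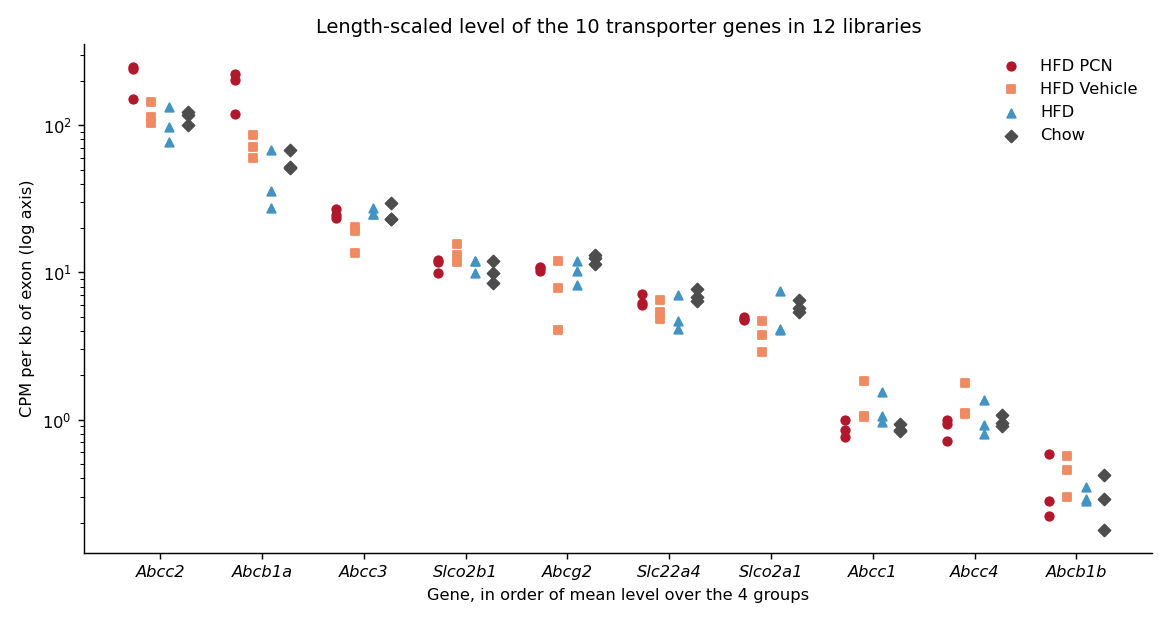
CPM per kb of exon (log axis) of the 10 transporter genes in each of the 12 libraries, with genes ordered by their mean over the 4 groups and symbols showing the group. Abcc2 and Abcb1a form the top of the range and Abcb1b the bottom, and HFD PCN lies above the other groups for Abcb1a and Abcc2.

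The comparison of HFD PCN with HFD Vehicle asks what PCN did in mice on a high-fat diet. Abcb1a was 2.53-fold and Abcc2 1.77-fold higher in HFD PCN, and Abcc3 1.42-fold, but none of the 10 transporter genes passed edgeR's test at an adjusted p under 0.05 over all 16110 genes tested, where 0.0621% of all genes did. Without HFD Vehicle 55, the shallowest library, Abcb1a and Abcg2 passed, and 3697 genes were called over the whole table in place of 10. That fit kept HFD Vehicle 23 and 50, where Hsp90aa1 stood at 1813.9 and 1479.1 CPM, against 114 CPM in HFD Vehicle 55. With HFD Vehicle 23 and 50 left out instead, the log2 fold change was 1.1 for Abcb1a and -0.15 for Abcg2. With all libraries it was 1.34 and 0.43. The part of depth and of the heat shock level in these shifts was not tested. With all libraries kept, DESeq2 called 1 of the 10, Abcb1a, and 320 of all 16109 genes tested. Limma-voom called 0 of the 10 and 7 of all 16110 genes. At an unadjusted p under 0.05 stood 4 of the 10, against 17.9% of all genes: Abcb1a, Abcc2 and Abcc3 higher and Abcc1 lower. The 3 libraries of HFD PCN lay wholly above those of HFD Vehicle for 4 genes (Abcb1a, Abcc2, Abcc3 and Slco2a1), against 9.84% of all genes, and wholly below for 2 (Abcc1 and Abcc4), against 9.48%, or 19.3% in either direction. The median log2 fold change of the 10 genes was 0.28, against -0.01 for all genes. Against HFD, the group on the same diet with no injection in the labels, 1 of the 10 passed, Abcb1a, where 0.325% of all 15982 genes tested did. There 2 of the 10, Abcb1a and Abcc2, stood at an unadjusted p under 0.05, against 18.2% of all genes, and the same 2 lay wholly above HFD, against 11.4% of genes wholly above and 23.2% not overlapping in either direction. In that comparison the median log2 fold change of the 10 was 0.03, against 0.0 for all genes. Both comparisons share the HFD PCN libraries, so they are not independent.

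**Figure D2:**
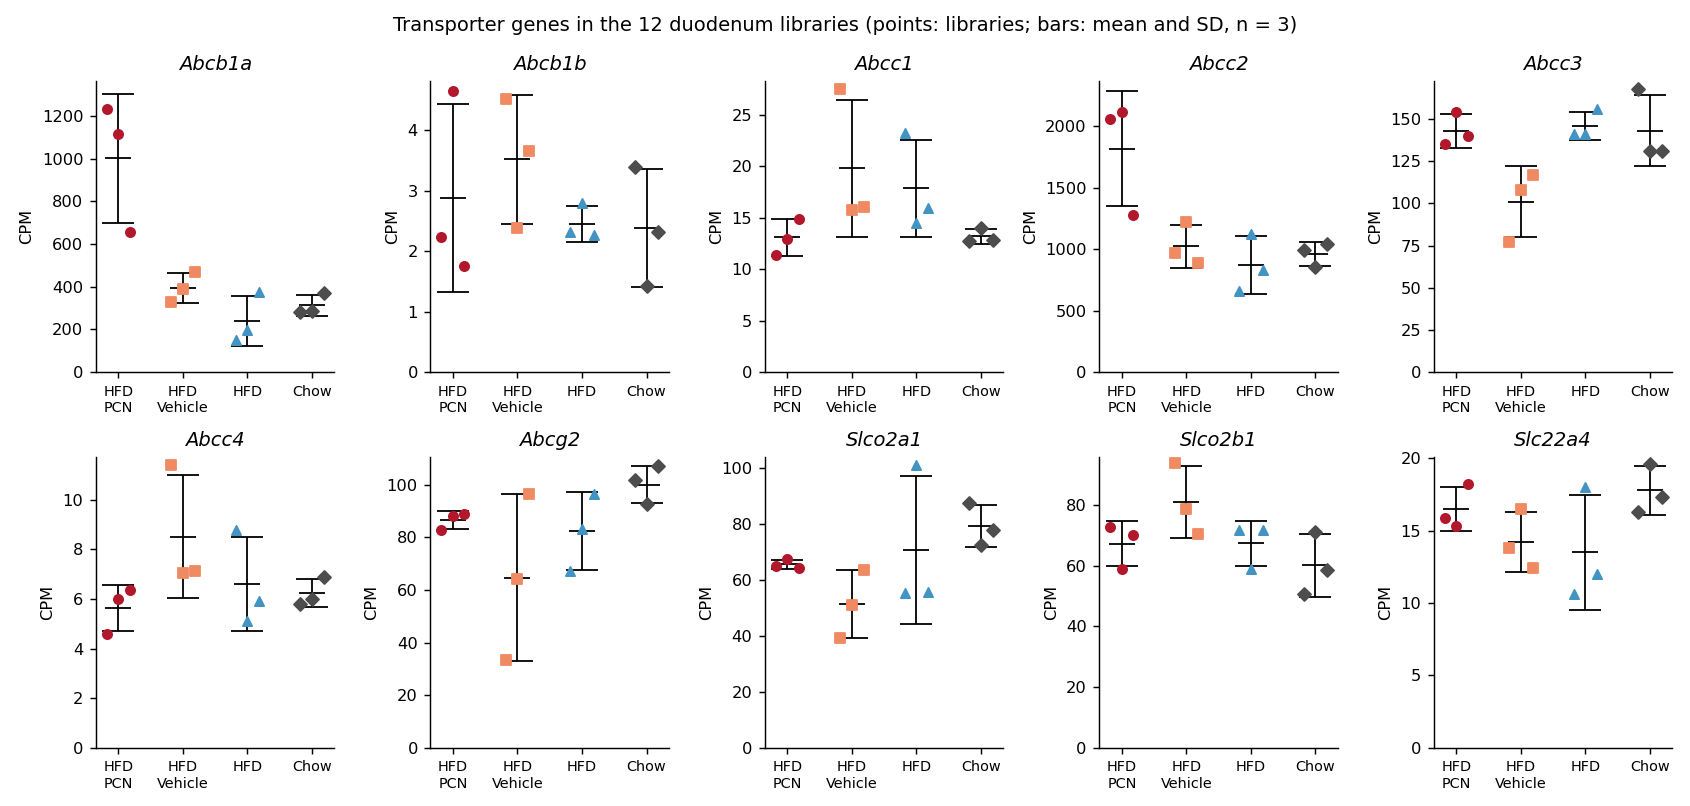
CPM of each transporter gene in every library, with the group mean and SD (n = 3) as bars; each panel has its own axis from 0. The 3 HFD PCN libraries are the highest of the 12 for Abcb1a and Abcc2, and HFD Vehicle 23, the leftmost point of its group, is at an extreme for Abcc1, Abcc3, Abcc4, Abcg2, Slco2a1 and Slco2b1.

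Abcb1a (ENSMUSG00000040584, chromosome 5, 8660077 to 8748575, plus strand) encodes the main intestinal P-glycoprotein of mice. It had 1229.9, 1116.1 and 657 CPM in HFD PCN 5, 11 and 27, against 329, 387 and 470 CPM in HFD Vehicle 23, 50 and 55. It had 151, 196 and 373 CPM in HFD 4, 30 and 38, and 282, 286 and 371 CPM in Chow 8, 17 and 19. All 3 HFD PCN libraries lay above the other 9, whose highest was 470 CPM, and the 3 other groups overlapped at each step of the order HFD Vehicle, Chow, HFD. Its log2 fold change against HFD Vehicle was 1.34 (SE 0.31, adjusted p = 0.231). Its adjusted p was 0.00139 with DESeq2, 0.00309 with no filter on low counts and 0.0151 without HFD Vehicle 55. Those fits called 320, 843 and 3697 genes in all, in place of 10. Over the alternatives that left out at most 1 library, the adjusted p of Abcb1a ranged from 0.00139 to 0.645. In the authors' deposited table the log2 fold change was 1.23, with an adjusted p of 0.002385. Against HFD, Abcb1a rose 4.15-fold in HFD PCN (log2 fold change 2.05, SE 0.36, adjusted p = 0.0483). That call was lost without HFD 4 (adjusted p = 0.19), HFD 30 (0.205), HFD PCN 5 (0.125) or HFD PCN 11 (0.198), with limma-voom (0.0604) and without ribosomal and repeat-like genes (0.0542), and the log2 fold change was 1.81 to 2.13 in those fits.

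**Figure D3:**
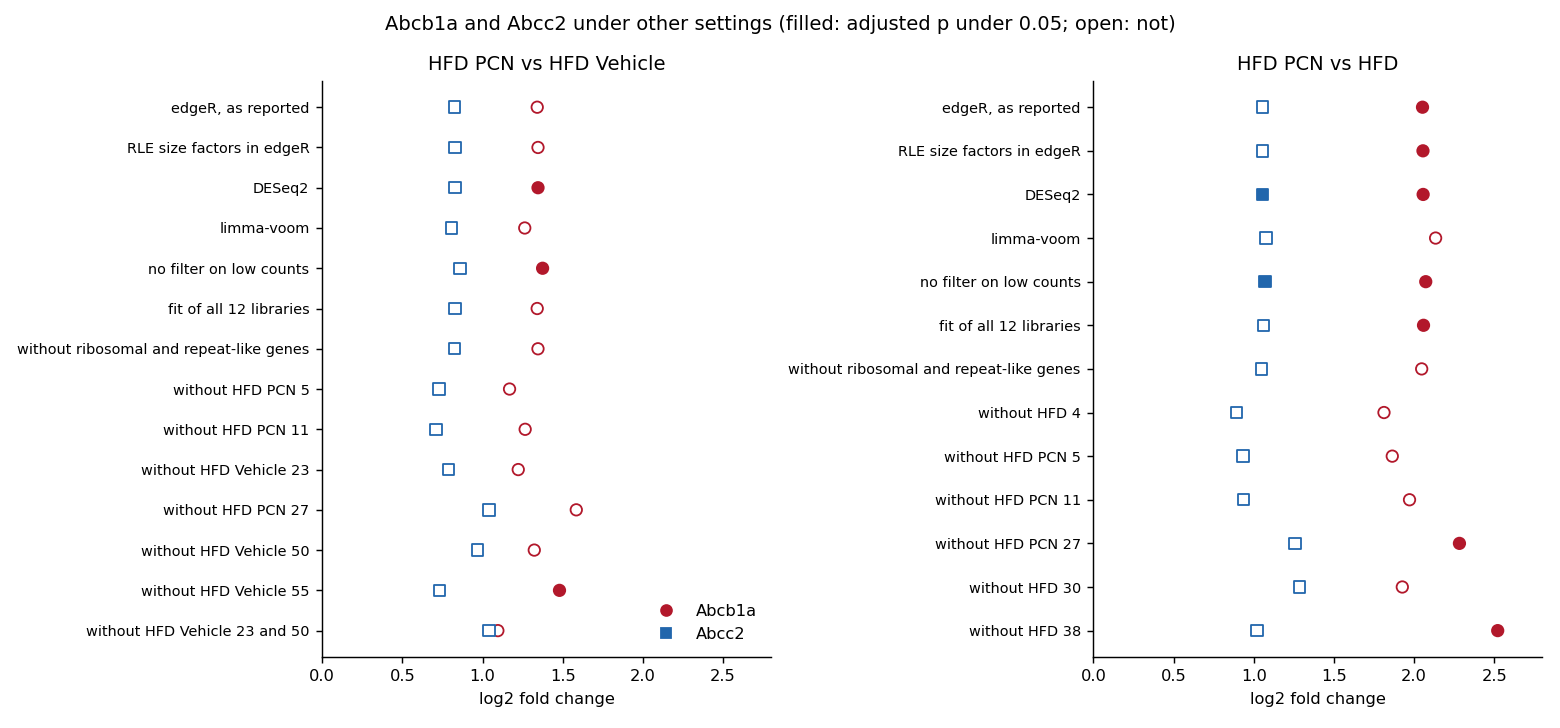
Log2 fold change (linear axis) of Abcb1a (circles) and Abcc2 (squares) in HFD PCN against HFD Vehicle and against HFD, under each setting tried; filled symbols have an adjusted p under 0.05. The fold changes are all above 0, from 1.1 to 2.52 for Abcb1a, while the adjusted p passes 0.05 in some settings and not in others.

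Set against Vil1, the gene of the enterocyte brush border protein villin, Abcb1a had 64.6, 66.0 and 31.3 reads per 100 Vil1 reads in HFD PCN 5, 11 and 27, against 28.4, 19.6 and 24.8 in HFD Vehicle 23, 50 and 55. The same ratio was 11.2, 8.47 and 15.9 in HFD 4, 30 and 38, and 15.5, 15.7 and 20.7 in Chow 8, 17 and 19. Per villin transcript HFD PCN lay above the other 3 groups, as it did by level, and HFD Vehicle lay above HFD, which it did not by level. The summed enterocyte markers were 29291.8 to 32644.5 CPM in HFD PCN, 11005.4 to 32066.8 in HFD Vehicle, 17145.7 to 34342.1 in HFD and 24082.8 to 30527.7 in Chow. Fibroblast markers, 6 genes in all, summed to 143 to 184 CPM in HFD PCN and 236 to 395 in HFD Vehicle. They summed to 284 to 370 CPM in HFD and 186 to 284 in Chow, so HFD PCN was the lowest group. In edgeR 2 of the 6, the collagen genes Col1a1 and Col3a1, fell against HFD, where 13 of all 15982 genes tested did. Against HFD at an unadjusted p under 0.05, 3 of 6 crypt and cycling cell and 2 of 10 enterocyte markers were higher. There 4 of 6 fibroblast and 3 of 6 macrophage and other myeloid markers were lower, against 18.2% of all genes. Against HFD Vehicle, edgeR and limma-voom called no fibroblast, smooth muscle, Paneth or T cell marker. DESeq2 called 2 fibroblast and 4 Paneth cell markers, all lower, where it called 218 of all 16109 genes lower. At an unadjusted p under 0.05 stood 4 of 6 fibroblast, 5 of 6 smooth muscle and 5 of 5 Paneth cell markers, all lower, and 4 of 7 T and NK cell markers, all higher, against 17.9% of all genes. The 3 heat shock genes tested were also lower there at that threshold, with a median log2 fold change of -4.48, and DESeq2 called Dnajb1 and Hsph1. The 7 pancreatic acinar markers had a median of -2.34, and 3 of them stood at that threshold. All 10 enterocyte markers had positive values, with a median of 0.43, and 2 stood at that threshold. In HFD Vehicle against HFD, all 5 Paneth cell markers were higher at that threshold, with a median of 2.2, against 5.86% of all genes. There the 7 acinar markers had a median of 1.99 and the 1 heat shock gene tested a value of 3.38. In HFD PCN against HFD the medians were -0.24 for 4 Paneth cell and -0.12 for 5 acinar markers tested. None of those stood at that threshold, and the heat shock value was 0.53. The part of these shifts in the transporter values was not tested. In these bulk libraries a change in the number of enterocytes and a change in the transcript per enterocyte cannot be told apart. By level, Abcb1a itself averaged 385 ± 61.5 CPM in HFD Vehicle, against 235 ± 111 CPM in HFD (log2 fold change 0.71, SE 0.35, adjusted p = 0.803), and HFD 38 lay within the HFD Vehicle range.

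Abcb1b (ENSMUSG00000028970, chromosome 5, 8798147 to 8866315, plus strand), the second P-glycoprotein gene, had 2.24, 4.65 and 1.76 CPM in HFD PCN 5, 11 and 27 and 4.52, 2.39 and 3.66 CPM in HFD Vehicle 23, 50 and 55. It had 2.31, 2.79 and 2.26 CPM in HFD and 3.39, 1.43 and 2.31 CPM in Chow. All 4 groups overlapped, and the log2 fold change in HFD PCN was -0.28 (SE 0.44) against HFD Vehicle and 0.22 (SE 0.38) against HFD. Its raw counts were small, 10 to 66 reads a library. Of the reads counted for the pair, Abcb1b took 0.182% in HFD PCN 5 (95% Wilson interval 0.136 to 0.244, counting error only), 0.415% in HFD PCN 11 and 0.267% in HFD PCN 27. It took 0.613% to 1.35% in HFD Vehicle, 0.602% to 1.51% in HFD and 0.499% to 1.19% in Chow. The HFD PCN shares lay below all others, and the total of both genes moved like Abcb1a alone, with a log2 fold change of 1.33 against HFD Vehicle and 2.04 against HFD (adjusted p = 0.231 and 0.0475).

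Neighbouring annotations were set beside Abcb1a. In GENCODE M21, Rundc3b shares no exon base with Abcb1a. Gm42686, on the minus strand, shares 553 exon bases with Abcb1a and had 6 reads in all 12 libraries together. Rundc3b (minus strand, 8490334 to 8622952), the gene that holds the RefSeq start of Abcb1a, was the gene most like Abcb1a of 13769 compared over the 12 libraries (Pearson r of log2 CPM 0.988, a description of libraries that share their scaling). Rundc3b had 47.2, 46.7 and 31.8 CPM in HFD PCN 5, 11 and 27, and 23.4, 21.4 and 27.5 CPM in HFD Vehicle 23, 50 and 55. It had 11.8, 13.2 and 24.4 CPM in HFD 4, 30 and 38, and 18.6, 17.5 and 22.5 CPM in Chow 8, 17 and 19. HFD PCN 5, 11 and 27 had 3.84, 4.18 and 4.84 Rundc3b reads per 100 Abcb1a reads, wholly below the other groups at 5.54 to 7.8. Its log2 fold change in HFD PCN was 0.8 (SE 0.23, adjusted p = 0.231) against HFD Vehicle and 1.31 (SE 0.27, adjusted p = 0.0756) against HFD. The strand setting of the counting is not given in the sources used here, so reads of Rundc3b and reads of an Abcb1a transcript that starts inside it cannot be told apart. Gm42684, an annotated locus of undetermined kind on the plus strand inside Abcb1a that shares no exon base with it, was singled out after its values were seen. It had 21.8, 13.3 and 11.5 CPM in HFD PCN 5, 11 and 27, against 3.0, 3.76 and 5.13 CPM in HFD 4, 30 and 38, and rose in HFD PCN (log2 fold change 1.92, SE 0.29, adjusted p = 0.0207). In HFD Vehicle 23, 50 and 55 it had 8.69, 21.3 and 5.9 CPM, so HFD Vehicle 50 reached the HFD PCN range there while its Abcb1a did not.

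**Figure D4:**
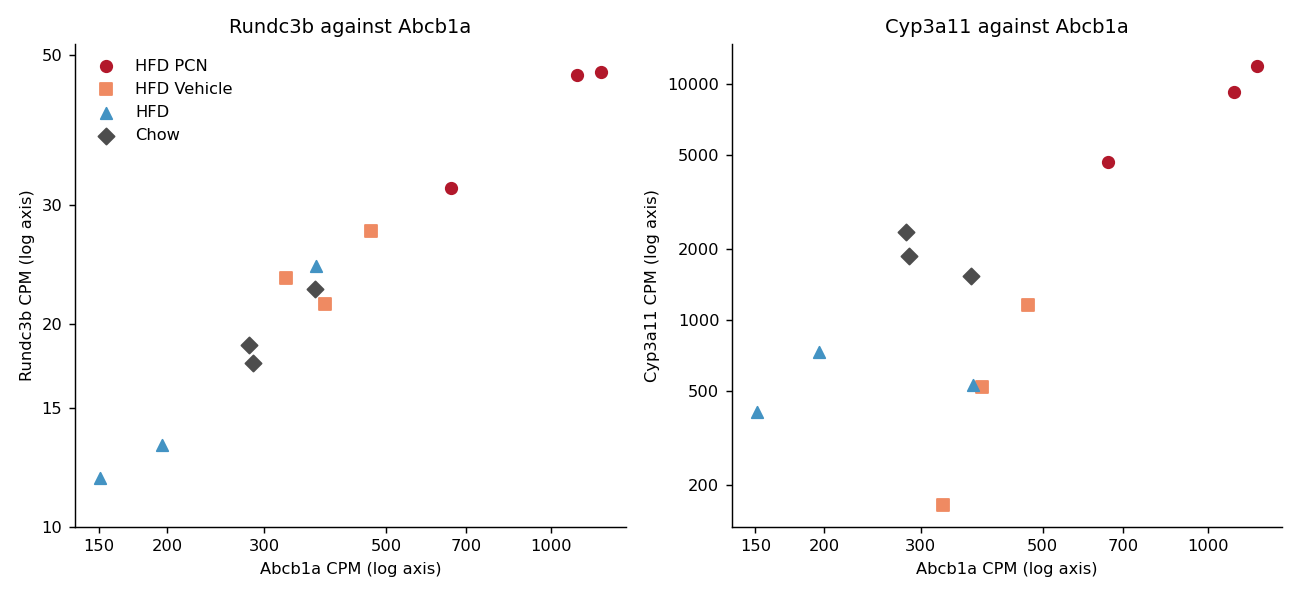
CPM of Rundc3b (left) and of Cyp3a11 (right) against CPM of Abcb1a in the 12 libraries, all axes logarithmic, with symbols showing the group. Rundc3b follows Abcb1a across all 4 groups, while Cyp3a11 separates Chow from HFD where Abcb1a does not.

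Abcc2 (ENSMUSG00000025194, chromosome 19, 43782192 to 43840740, plus strand) encodes Mrp2, which exports glutathione and glucuronide conjugates into the lumen. It had 2058.7, 2113.9 and 1277.1 CPM in HFD PCN 5, 11 and 27, against 968, 1216.9 and 885 CPM in HFD Vehicle 23, 50 and 55. It had 659, 1126.4 and 827 CPM in HFD 4, 30 and 38, and 996, 854 and 1039.3 CPM in Chow 8, 17 and 19. The 3 HFD PCN libraries were the highest of the 12, though HFD PCN 27 exceeded HFD Vehicle 50 only slightly. The other 3 groups overlapped in the order HFD Vehicle, Chow, HFD. The log2 fold change was 0.82 (SE 0.32, adjusted p = 0.252) against HFD Vehicle and 1.05 (SE 0.3, adjusted p = 0.145) against HFD. Against HFD it passed with DESeq2 (adjusted p = 0.00354) and with no filter on low counts (0.0196), within a range of 0.00354 to 0.56. Per 100 Vil1 reads, Abcc2 had 60.8 to 125 reads in HFD PCN and 46.7 to 83.4 in HFD Vehicle, which overlap, 35.2 to 49.0 in HFD and 47.0 to 58.0 in Chow. In the authors' deposited table the log2 fold change against HFD Vehicle was 0.77, with an adjusted p of 0.14.

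Within HFD PCN, library 27 was the lowest of the 3 for both Abcb1a and Abcc2. Cyp3a11, the cytochrome P450 gene used as the reference target of PXR, was also lowest there, with 11918.5, 9276.0 and 4653.1 CPM in HFD PCN 5, 11 and 27. It had 164, 517 and 1154.9 CPM in HFD Vehicle 23, 50 and 55, 406, 729 and 530 CPM in HFD 4, 30 and 38, and 2356.4, 1860.2 and 1531.9 CPM in Chow 8, 17 and 19. Its log2 fold change in HFD PCN was 3.83 (SE 0.71, adjusted p = 0.2) against HFD Vehicle and 3.95 (SE 0.43, adjusted p = 0.00214) against HFD. DESeq2 called Cyp3a11 in both comparisons, and limma-voom only against HFD. The authors' deposited table gave Cyp3a11 a log2 fold change of 2.8 against HFD Vehicle, with an adjusted p of 1.12e-08. Nr1i2, the PXR gene itself, had 163, 202 and 168 CPM in HFD PCN 5, 11 and 27 and 165, 171 and 152 CPM in HFD Vehicle 23, 50 and 55, which overlap.

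Abcc3 (ENSMUSG00000020865, chromosome 11, 94343295 to 94392997, minus strand) encodes Mrp3, which exports glucuronides and bile acids across the basolateral membrane. It had 135, 154 and 140 CPM in HFD PCN 5, 11 and 27, against 77.1, 108 and 117 CPM in HFD Vehicle 23, 50 and 55. It had 141, 141 and 156 CPM in HFD and 168, 131 and 131 CPM in Chow. HFD Vehicle lay wholly below the other 3 groups, whose lowest library had 131 CPM, while HFD PCN, HFD and Chow overlapped. The log2 fold change of HFD PCN was 0.5 (SE 0.22, adjusted p = 0.27) against HFD Vehicle but -0.04 (SE 0.16, adjusted p = 0.915) against HFD. The 2 comparisons thus gave different values for Abcc3, and the difference between them was not tested. Per 100 Vil1 reads, Abcc3 had 6.67 to 9.12 reads in HFD PCN, 5.46 to 6.65 in HFD Vehicle, 6.1 to 10.5 in HFD and 7.24 to 9.24 in Chow.

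Abcg2 (ENSMUSG00000029802, chromosome 6, 58584523 to 58695676, plus strand) encodes Bcrp, an apical exporter of sulphate conjugates and drugs. It had 82.8, 88.1 and 89.1 CPM in HFD PCN 5, 11 and 27, against 33.3, 64.1 and 96.6 CPM in HFD Vehicle 23, 50 and 55. It had 67.4, 83.1 and 96.7 CPM in HFD 4, 30 and 38, and 102, 92.8 and 107 CPM in Chow 8, 17 and 19. HFD Vehicle spread widely and overlapped HFD PCN and HFD, whereas Chow lay above HFD PCN. For Abcg2 the log2 fold change against HFD Vehicle was 0.43 (SE 0.32, adjusted p = 0.464). It became 0.82 without HFD Vehicle 55 (adjusted p = 0.045, in a fit that called 3697 of all 16789 genes tested). It was 0.11 without HFD Vehicle 23 and -0.15 without HFD Vehicle 23 and 50, so it turned when both were left out. Against HFD it was 0.06 (SE 0.17, adjusted p = 0.872).

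Abcc1 (ENSMUSG00000023088, chromosome 16, 14361558 to 14475737, plus strand) encodes Mrp1, a basolateral exporter of glutathione conjugates and leukotrienes. It had 11.4, 12.9 and 14.9 CPM in HFD PCN 5, 11 and 27, against 27.5, 15.8 and 16.1 CPM in HFD Vehicle 23, 50 and 55. It had 23.3, 14.5 and 16.0 CPM in HFD 4, 30 and 38, and 12.7, 14 and 12.8 CPM in Chow 8, 17 and 19. HFD PCN lay below HFD Vehicle and overlapped Chow and HFD, and the 2 highest libraries of the 12, HFD Vehicle 23 and HFD 4, are the 2 with the lowest enterocyte marker sums. The log2 fold change of HFD PCN was -0.61 (SE 0.27, adjusted p = 0.279) against HFD Vehicle, and -0.29 without HFD Vehicle 23. Against HFD it was -0.44 (SE 0.22, adjusted p = 0.309).

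Abcc4 (ENSMUSG00000032849, chromosome 14, 118482692 to 118706219, minus strand) encodes Mrp4, an exporter of cyclic nucleotides and nucleoside drugs. It had 4.59, 5.99 and 6.35 CPM in HFD PCN 5, 11 and 27, against 11.4, 7.06 and 7.12 CPM in HFD Vehicle 23, 50 and 55. It had 8.77, 5.12 and 5.92 CPM in HFD 4, 30 and 38, and 5.81, 6.02 and 6.87 CPM in Chow 8, 17 and 19. HFD PCN lay below HFD Vehicle, and the 2 highest libraries were again HFD Vehicle 23 and HFD 4. The log2 fold change was -0.62 (SE 0.3, adjusted p = 0.3) against HFD Vehicle, and -0.19 (SE 0.28, adjusted p = 0.731) against HFD. Whether the cell makeup or handling of HFD Vehicle 23 and HFD 4 plays a part in the values of Abcc1 and Abcc4 was not tested.

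None of the 3 uptake carriers had an unadjusted p under 0.05 in any of the 4 comparisons. Slco2a1 (ENSMUSG00000032548, chromosome 9, 102988712 to 103096002, plus strand), the prostaglandin transporter, had 65.1, 67.4 and 64.3 CPM in HFD PCN 5, 11 and 27, against 39.1, 51.2 and 63.5 CPM in HFD Vehicle 23, 50 and 55. It had 55.4, 101 and 55.7 CPM in HFD 4, 30 and 38, and 87.4, 72.5 and 77.9 CPM in Chow 8, 17 and 19. HFD PCN lay just above HFD Vehicle (log2 fold change 0.36, SE 0.21, adjusted p = 0.371), overlapped HFD (-0.12, SE 0.23, adjusted p = 0.79) and lay below Chow.

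Slco2b1 (ENSMUSG00000030737, chromosome 7, 99657804 to 99711340, minus strand) encodes an intestinal uptake carrier of organic anions such as steroid sulphates and statins. It had 72.7, 58.9 and 70.2 CPM in HFD PCN 5, 11 and 27, against 93.7, 78.6 and 70.4 CPM in HFD Vehicle 23, 50 and 55. It had 71.7, 58.9 and 71.6 CPM in HFD and 50.6, 71.0 and 58.7 CPM in Chow. HFD PCN overlapped all 3 other groups, and its log2 fold change was -0.27 (SE 0.2, adjusted p = 0.457) against HFD Vehicle and -0.01 (SE 0.17, adjusted p = 0.985) against HFD. Gm15635, on the opposite strand, shares 471 exon bases with Slco2b1 and had 59 reads in all 12 libraries together.

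Slc22a4 (ENSMUSG00000020334, chromosome 11, 53983123 to 54028090, minus strand) encodes Octn1, the carrier of ergothioneine and some organic cations. It had 15.9, 15.3 and 18.2 CPM in HFD PCN 5, 11 and 27, against 13.8, 16.5 and 12.4 CPM in HFD Vehicle 23, 50 and 55. It had 10.6, 18.0 and 12 CPM in HFD 4, 30 and 38, and 16.3, 19.6 and 17.3 CPM in Chow 8, 17 and 19. All neighbouring groups in the order Chow, HFD PCN, HFD Vehicle, HFD overlapped. The log2 fold change of HFD PCN was 0.19 (SE 0.22, adjusted p = 0.627) against HFD Vehicle and 0.25 (SE 0.22, adjusted p = 0.563) against HFD.

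**Figure D5:**
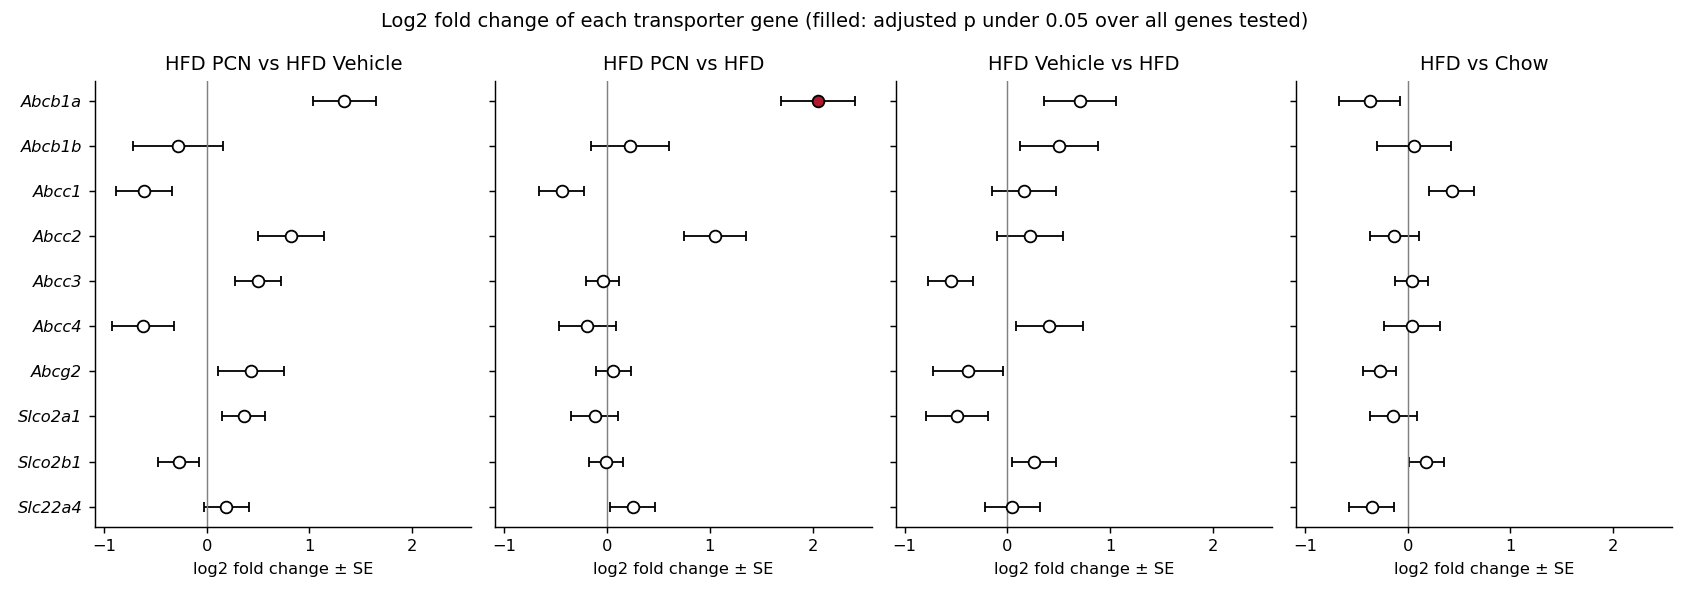
Log2 fold change ± SE (edgeR) of the 10 transporter genes in the 4 comparisons, with filled symbols for an adjusted p under 0.05 over all genes tested. Abcb1a against HFD, at 2.05, is the only filled point, and Abcc2 follows at 1.05 in that comparison.

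HFD Vehicle against HFD sets the injected group beside the group on the same diet without an injection in its labels. None of the 10 transporter genes passed in edgeR, where 0.0% of the 16255 genes tested did, and DESeq2 and limma-voom also called 0 of the 10. Of all genes, DESeq2 called 29 of 16243 there and limma-voom 0 of 16255. At an unadjusted p under 0.05 stood 1 of the 10, against 5.86% of all genes. It was Abcc3, which averaged 98.0 ± 18.7 CPM in HFD Vehicle, against 143 ± 6.3 CPM in HFD (log2 fold change -0.55, SE 0.22, adjusted p = 0.803). Abcc3 was also the only one of the 10 whose libraries did not overlap, against 9.92% of all genes. By size, the log2 fold change was 0.71 for Abcb1a, ahead of Abcc3, and the values after Abcc3 were those of Abcb1b at 0.5 (SE 0.38), Slco2a1 at -0.49 (SE 0.3) and Abcc4 at 0.41 (SE 0.33). The median of the 10 was 0.19, against 0.01 for all genes. Without HFD Vehicle 55, 260 genes of the whole table were called and still 0 of the 10.

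The comparison of HFD with Chow asks what the high-fat diet did. None of the 10 transporter genes passed in edgeR, where 0.0655% of the 15278 genes tested did. Nor did any pass with DESeq2 or limma-voom, which called 138 of 15277 and 7 of 15278 genes. At an unadjusted p under 0.05 stood 0 of the 10, against 10.3% of all genes. Abcc1 was the only gene whose libraries did not overlap, against 16.3% of all genes, and averaged 18.3 ± 4.91 CPM in HFD and 13.3 ± 0.748 CPM in Chow (log2 fold change 0.43, SE 0.22, adjusted p = 0.502). Abcb1a averaged 244 ± 116 CPM in HFD and 316 ± 51.4 CPM in Chow (-0.37, SE 0.3, adjusted p = 0.665), a value that was -0.82 without HFD 38, -0.14 without HFD 4, -0.25 without HFD 30 and -0.23 without Chow 19. Slc22a4 (-0.35, SE 0.22) and Abcg2 (-0.27, SE 0.16) were lower in mean, and the other 6 had log2 fold changes between -0.14 and 0.18. The median of the 10 was -0.04, against 0.0 for all genes. Among cell type markers, 6 of 7 T and NK cell and 6 of 7 pancreatic acinar markers were lower in HFD at an unadjusted p under 0.05. Their median log2 fold changes were -1.17 and -3.26. At that threshold 1 of 10 enterocyte markers was lower, against 10.3% of all genes, and edgeR called none in these 3 lists. The part of these shifts in the transporter values was not tested. Cyp3a11 averaged 566 ± 167 CPM in HFD and 1931.6 ± 414 CPM in Chow, a log2 fold change of -1.77 (SE 0.28, adjusted p = 0.0611), which was thus larger than that of any of the 10.

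Among other exporters of the ABC family, 7 of 10 listed genes were tested in each comparison. Only Abca1, which exports cholesterol to lipoproteins, was called in edgeR: it rose in HFD PCN against HFD, with 435, 424 and 396 CPM in HFD PCN 5, 11 and 27 and 121, 180 and 221 CPM in HFD 4, 30 and 38 (log2 fold change 1.26, SE 0.23, adjusted p = 0.0483). Against HFD Vehicle, with 146, 186 and 279 CPM, its log2 fold change was 1.04 (SE 0.27, adjusted p = 0.231), and DESeq2 called it while limma-voom did not. In the authors' deposited table the value for Abca1 was 0.97, with an adjusted p of 0.02819. Abcc6, an exporter of the same subfamily as Abcc2, had 13.3, 16.6 and 25.0 CPM in HFD PCN 5, 11 and 27 and 62.5, 57.3 and 28.1 CPM in HFD Vehicle 23, 50 and 55. Its libraries did not overlap, with a log2 fold change of -1.46 (SE 0.34, adjusted p = 0.231), the opposite sign to that of Abcc2, and DESeq2 called it too. In the authors' deposited table it was -1.24 with an adjusted p of 0.0242. Against Chow, Abcc5, a nucleotide analogue exporter, and Abcc6 had log2 fold changes of 0.66 (SE 0.17, adjusted p = 0.272) and 0.58 (SE 0.19, adjusted p = 0.362) in HFD.

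Other uptake carriers gave no call in edgeR in any of the 4 comparisons. In HFD PCN against HFD Vehicle, an unadjusted p under 0.05 was reached by 1 of the 3 other organic anion carriers tested, 3 of 9 organic cation, anion and carnitine carriers, 2 of 12 nucleoside, peptide and monocarboxylate carriers and 1 of 3 bile acid carriers, against 17.9% of all genes. DESeq2 called Slc51b there, Slc15a1 in HFD PCN against HFD and Slc28a1 in HFD against Chow, and limma-voom called none in these lists. In the same 3 comparisons DESeq2 called 320 of 16109, 459 of 15981 and 138 of 15277 genes in all. Slco4a1, a thyroid hormone carrier, averaged 3.08 ± 1.09 CPM in HFD PCN and 6.23 ± 1.5 CPM in HFD Vehicle (log2 fold change -1.05, SE 0.35, adjusted p = 0.24). The carnitine carrier Slc22a5, the nearest relative of Slc22a4 in the list, averaged 69.7 ± 6.49 CPM in HFD PCN and 39.5 ± 17.2 CPM in HFD Vehicle (0.83, SE 0.31, adjusted p = 0.246). The peptide carrier Slc15a1, which also takes up beta-lactam antibiotics, averaged 601 ± 140 CPM in HFD PCN and 282 ± 165 CPM in HFD Vehicle (1.09, SE 0.43, adjusted p = 0.254). In HFD it averaged 288 ± 119 CPM and in Chow 563 ± 194 CPM (-0.96, SE 0.35, adjusted p = 0.425). The nucleoside carrier Slc28a1 averaged 35.5 ± 14.4 CPM in HFD and 72.8 ± 8.6 CPM in Chow, with no overlap of libraries (-1.02, SE 0.25, adjusted p = 0.243). Slc51b, a subunit of the basolateral bile acid exporter, averaged 63.0 ± 19.5 CPM in HFD PCN and 21.6 ± 15.1 CPM in HFD Vehicle (1.58, SE 0.51, adjusted p = 0.24), while its partner Slc51a had a log2 fold change of 0.46 (SE 0.45).

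Scaffolds and regulators of transporters gave no call in edgeR or limma-voom, and in DESeq2 1, the scaffold gene Slc9a3r2. It was lower in HFD PCN than in HFD, where DESeq2 called 246 of 15981 genes lower. In HFD PCN against HFD Vehicle, 0 of 6 scaffold genes and 2 of 11 regulators had an unadjusted p under 0.05, against 17.9% of all genes. Of the 6 scaffolds that anchor apical transporters, Ezr, the gene of ezrin, averaged 1048.4 ± 183 CPM in HFD PCN and 630 ± 220 CPM in HFD Vehicle (log2 fold change 0.74, SE 0.33, adjusted p = 0.279). Pdzk1, which binds Mrp2 among others, averaged 146 ± 51.3 CPM in HFD and 188 ± 25.1 CPM in Chow (-0.37, SE 0.25, adjusted p = 0.611). Of the 11 regulators, Nr1h4, the bile acid receptor FXR, averaged 68.3 ± 15.7 CPM in HFD PCN and 46.3 ± 11.0 CPM in HFD Vehicle (0.57, SE 0.25, adjusted p = 0.275), while the values of Nr1i2 were 0.12 (SE 0.2) there and 0.3 (SE 0.19, adjusted p = 0.587) in HFD against Chow. By contrast, the 10 reference targets of PXR outside the transporters all had positive log2 fold changes in HFD PCN, with a median of 2.47 against HFD Vehicle and 2.67 against HFD. In edgeR 4 of the 10 rose against HFD Vehicle, where 0.0497% of all genes rose, and 5 against HFD, where 0.244% did. DESeq2 called 10 and 8 of them higher in these comparisons, where it called 102 of 16109 and 213 of 15981 genes higher. Limma-voom called 2 and 5 of them higher, where it called 5 of 16110 and 32 of 15982 genes higher. Ces2a, a carboxylesterase, rose by a log2 fold change of 3.83 (SE 0.38, adjusted p = 0.0165) against HFD Vehicle, and Ephx1, microsomal epoxide hydrolase, by 3.77 (SE 0.43, adjusted p = 0.0255). In HFD against Chow, 2 of these 10 targets fell in edgeR, where 0.0589% of all genes did: Cyp2c55 (-3.1, SE 0.17, adjusted p = 2.61e-05) and Gstm1 (-1.07, SE 0.15, adjusted p = 0.0399). DESeq2 called 5 lower, adding Ces2a, Cyp2b10 and Cyp3a11, where it called 79 of 15277 genes lower. Limma-voom called 3 lower, adding Cyp3a11, where it called 7 of 15278 genes lower. The list was chosen with earlier results of these data known, so its counts are a description.

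Ratios between transporters also differed between groups. The ratio of Abcc2 reads, for the lumen-facing pump, to Abcc3 reads, for the blood-facing pump, was 15.3, 13.7 and 9.11 in HFD PCN 5, 11 and 27, and 12.5, 11.3 and 7.57 in HFD Vehicle 23, 50 and 55. It was 4.66, 7.96 and 5.31 in HFD 4, 30 and 38, and 5.93, 6.5 and 7.93 in Chow 8, 17 and 19. HFD PCN lay above HFD and Chow but overlapped HFD Vehicle, which itself overlapped HFD and Chow. The ratio of Abcb1a to Abcg2 reads was 7.38 to 14.8 in HFD PCN, 4.86 to 9.87 in HFD Vehicle, 2.24 to 3.85 in HFD and 2.78 to 3.48 in Chow. In HFD Vehicle this ratio was highest in library 23, at 9.87, which had the lowest Abcg2 level of the 12 libraries. These are raw read ratios of different genes and not molar ratios.

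Genes whose log2 CPM followed a transporter gene most closely over the 12 libraries were ranked among 13769 genes. For Abcc2 these were Dennd4c (Pearson r 0.956), Cltb (0.941) and Neo1 (0.93), and for Abcb1a, after Rundc3b, Elavl1 (0.941) and Hmgcs1 (0.935). Abcc3 was most like Abcg3 (0.947), another gene of the ABC family, and Abcg2 most like Ino80c (0.972). Abcc1 was most like Tln2 (0.971) and Abcc4 most like Tarbp1 (0.981). The uptake carriers Slco2a1, Slco2b1 and Slc22a4 were most like Il2rb (0.937), Rangap1 (0.954) and Hexim2 (0.876). Abcb1b, the gene with the fewest reads, had the weakest likeness, to Cblb (0.857). These values describe 12 libraries in 4 groups that share 1 scaling, and the highest of many correlations is high by selection.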

How the data were processed

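RNA was sequenced in 12 duodenum libraries, 3 per group, and grouped by the sample titles. The authors deposited raw counts per gene in 2 tables of 6 libraries, HFD with Chow and HFD PCN with HFD Vehicle, beside their own log2 fold change and p-value columns, which are cited only as the authors' deposited table. HISAT2, HTSeq, DESeq2 and GRCm38 (mm10) are named in the submitters' processing notes, without versions. The annotation release, strand setting, read length and read filters are not given in the sources used here. No value column was left without a sample or comparison.

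The 2 comparisons within a deposited table were each fitted on that table, and the comparisons across tables on the 26121 genes in both. The main test was edgeR 4.0.16 (R 4.3.3): filterByExpr, TMM, robust quasi-likelihood F-test, two-sided, with Benjamini-Hochberg adjustment over all genes tested and a threshold of 0.05. The SE is approximate, the absolute log2 fold change over the root of F. The fit code was checked on simulated counts with a single dispersion and no outlying library. That check does not cover the spread between these libraries. Means beside a fold change use the scaling of that fit, and values per library and per kb use TMM over all 12 libraries, so they differ slightly. Exon lengths are from GENCODE M21, at whose coordinates all 10 genes lie. DESeq2 1.42.0 and limma-voom 3.58.1 were alternatives, with RLE scaling, no filter, a fit of all 12 libraries, removal of ribosomal and repeat-like genes, summing of the Abcb1 pair and leaving out libraries.

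Within groups, pairs of libraries differed beyond sampling noise (chi-square over its degrees of freedom 30.5 to 213). Each library was entered as 1 replicate in the fits. This spread cannot show whether the libraries came from separate animals. Total counts of 4676718 to 20684369 set the counting error, and intervals cover that error only and not the spread between libraries. Named genes were all 10 transporter genes, list members called or with the 2 smallest p-values of a list in each of the 2 deposited comparisons, Nr1i2, Cyp3a11, and the genes most correlated with each transporter gene, leaving out predicted genes. The genes and lists were chosen with earlier results of these data known.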

Additional observations from a re-analysis of the deposited data

How the results depend on the processing

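Of 504 recomputed log2 fold changes of the 10 transporter genes, 466 kept their direction and side of the threshold, 26 reversed, 6 gained and 6 lost a call. The number of all genes called moved most. In HFD PCN against HFD Vehicle it was 10, and 320 with DESeq2, 843 with no filter on low counts, 34 in a fit of all 12 libraries, 4 without ribosomal and repeat-like genes, 2 without HFD Vehicle 23 and 50, and 0 to 3697 leaving out 1 library. In HFD PCN against HFD it was 52, and 459 with DESeq2, 746 with no filter, 29 with all 12 libraries and 1 to 452 leaving out 1 library. In HFD Vehicle against HFD it was 0, and 29 with DESeq2, 1 with no filter, 1 with all 12 libraries, 6 without HFD Vehicle 23 and 50 and 0 to 260 leaving out 1 library. In HFD against Chow it was 10, and 138 with DESeq2, 351 with no filter, 2 with all 12 libraries and 4 to 63 leaving out 1 library. Of the 10 transporter genes, the number called in HFD PCN against HFD Vehicle was 0, but 1 with DESeq2 and with no filter and 0 to 2 leaving out 1 library. Against HFD it was 1, but 2 with DESeq2 and with no filter, 0 with limma-voom and without ribosomal and repeat-like genes, and 0 to 1 leaving out 1 library. The cause of these shifts was not tested.

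Reversed values were small and never called. They were -0.073 for Abcc4 in HFD against Chow with limma-voom, 0.010 for Slco2b1 in HFD PCN against HFD with no filter, and -0.15 for Abcg2 in HFD PCN against HFD Vehicle without HFD Vehicle 23 and 50. In HFD Vehicle against HFD without those libraries they were -0.15 for Abcc1, 0.21 for Abcg2 and -0.16 for Slc22a4. Leaving out 1 library in HFD against Chow gave -0.36 to 0.024 for Abcc2, -0.18 to 0.199 for Abcc4, -0.16 to 0.36 for Abcb1b, -0.018 to 0.16 for Abcc3 and -0.501 to 0.022 for Slco2a1. In HFD Vehicle against HFD it gave -0.095 to 0.33 for Slc22a4 and -0.17 to 0.35 for Abcc1. In HFD PCN against HFD it gave -0.35 to 0.019 for Abcc4, -0.057 to 0.19 for Abcg2, -0.097 to 0.084 for Slco2b1, -0.29 to 0.46 for Abcb1b, -0.27 to 0.23 for Slco2a1 and -0.093 to 0.011 for Abcc3. No paired analysis was possible because no replicate number occurs in more than 1 group. Depth limits Abcb1b most, with 10 reads in the libraries where it was rarest.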
